A study of Mus musculus with 15 samples.

Results

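Fgf5, Otx2, Pou3f1, Foxd3, Zic2 and Zic5 are 6 genes that mark or establish the primed epiblast, and arrays gave their RNA levels in mouse embryonic stem (ES) cells given 1 of 2 short hairpins, with or without retinoic acid. They were chosen by name and found on the array by the gene name of each probe. Each of the 6 had 1 probe, so no choice between probes was needed, and all 6 were among the 25139 genes tested out of 31829 gene names on the array. Cells carried a short hairpin RNA that the labels call sh4 or the control hairpin shCTR, given there as a transfection. Total RNA from 15 samples was labelled with Cy3 and hybridised, 1 sample to an array, to Agilent 1-colour arrays. The 4 groups were sh4 cells after 72 hours in 1 µM retinoic acid (3 arrays), shCTR cells after the same treatment (4 arrays), untreated sh4 cells (4 arrays) and untreated shCTR cells (4 arrays). The labels do not name the gene that sh4 targets, the ES cell line, the vector or any feeder layer. In the series title the gene named is Phf19, whose product joins the Polycomb complex PRC2, the methyltransferase of histone H3 lysine 27. No time is given for the untreated cells, so an effect of retinoic acid cannot be told apart from one of 72 hours in culture. Samples of a group are titled biological replicates without word of separate cultures, and the p-values therefore cover only the spread seen among these 15 samples, which may be technical.

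ES cells in culture resemble the naive epiblast of the embryo before implantation. On the way to germ layer formation the epiblast passes through a formative and then a primed state, in which naive genes are shut off and a new set of factors comes on. Fgf5 encodes a secreted fibroblast growth factor and is the classical marker of that transition. Otx2 is a homeodomain factor that moves enhancer use from the naive to the primed pattern, and Pou3f1 (Oct6) is a POU factor of the primed epiblast that also favours neural fate. Foxd3 is a forkhead factor needed for the epiblast and later for neural crest. Zic2 and Zic5 are zinc finger factors encoded side by side. Retinoic acid, a vitamin A derivative, takes ES cells out of pluripotency.

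The regions upstream of the start sites are shown because CpG-dense promoters are the usual sites of PRC2 in ES cells, and because they show how far these genes differ in CpG density. RefSeq windows on GRCm38.p6, each with 250 bases before the start and 50 after it, were at hand for 4 of the 6 genes: Fgf5, Otx2, Foxd3 and Zic5. The 250 bases before the start are printed 5′ to 3′ in the direction of transcription, with each CpG in capitals, except for Otx2.
Fgf5, chr5:98253934-98254183, plus strand: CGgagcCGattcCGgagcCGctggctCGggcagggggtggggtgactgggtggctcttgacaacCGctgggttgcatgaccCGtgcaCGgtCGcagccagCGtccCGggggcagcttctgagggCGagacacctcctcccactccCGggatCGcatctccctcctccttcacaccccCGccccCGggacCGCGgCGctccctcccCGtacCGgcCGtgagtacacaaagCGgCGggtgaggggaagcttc
Foxd3, chr4:99656049-99656298, plus strand: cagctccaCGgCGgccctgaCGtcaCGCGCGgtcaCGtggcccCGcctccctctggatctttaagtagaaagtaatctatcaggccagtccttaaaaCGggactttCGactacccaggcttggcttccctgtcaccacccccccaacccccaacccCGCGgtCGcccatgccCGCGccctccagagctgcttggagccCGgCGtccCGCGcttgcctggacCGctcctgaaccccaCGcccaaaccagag
Zic5, chr14:122465659-122465908, minus strand: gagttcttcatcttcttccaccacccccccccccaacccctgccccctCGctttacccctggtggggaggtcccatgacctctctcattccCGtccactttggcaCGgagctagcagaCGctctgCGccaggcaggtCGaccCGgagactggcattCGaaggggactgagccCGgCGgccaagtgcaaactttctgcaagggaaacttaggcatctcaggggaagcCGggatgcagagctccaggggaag
Otx2, at 1 of 4 listed starts, chr14:48665110-48665359, minus strand, with the letters GGATTA in capitals: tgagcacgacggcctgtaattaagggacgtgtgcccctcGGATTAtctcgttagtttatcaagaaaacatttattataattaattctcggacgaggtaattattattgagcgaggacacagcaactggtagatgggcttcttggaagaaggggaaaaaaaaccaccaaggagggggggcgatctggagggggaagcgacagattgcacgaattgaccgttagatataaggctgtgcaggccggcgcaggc
The Fgf5 window held 29 CpGs over its 300 bases and was 68.3% G or C, and 87.1% of the 32851 windows of that length held fewer CpGs. The Foxd3 window held 25 CpGs, with 81.6% of windows below it, and the Zic5 window 15, with 65.4% below it. The 4 Otx2 windows held 6, 8, 16 and 11 CpGs, which spans the median of 7 over all windows. The core letters of the Otx binding motif, GGATTA, were searched on both strands and occurred once, at position −211 from the start, in the Otx2 window printed here. They were present in 7.06% of all windows. Neither the direct repeat of the retinoic acid receptor site AGGTCA, with 5 bases between the copies, nor the octamer of POU factors, ATGCAAAT, was found on either strand of a member's window. Those letters occurred in 0.00913% and 1.74% of all windows.

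Levels are log2 values of the processed signal relative to the 75th percentile of the same array, so that 0 is the level of that percentile. They compare arrays for 1 probe and not 1 probe with another. Phf19, the gene named in the title, was lower in sh4 than in shCTR. Its level was −3.9, −3.97 and −3.71 in sh4 cells in retinoic acid, against −3.01, −3.06, −3.05 and −2.8 in shCTR cells in retinoic acid. In untreated cells it was −2.61, −2.54, −2.51 and −2.54 with sh4, against −0.93, −0.98, −0.7 and −0.69 with shCTR. Its probe on mm9 lies at chr2:34749588-34749646, minus strand. The 15 arrays had 73.8% to 79.4% of probes well above background and no saturated spot, and they sat on 4 slides, the last of which held no sh4 array in retinoic acid. All 6 ES cell markers checked (Pou5f1, Sox2, Nanog, Zfp42, Esrrb and Tdgf1) were well above background on every array. Their summed level, in units of the 75th percentile, was 3.89 to 8.23 in sh4 cells in retinoic acid and 8.82 to 10.8 in shCTR cells in retinoic acid, and 160 to 170 in untreated sh4 cells and 214 to 237 in untreated shCTR cells. In bulk RNA, fewer cells of a type and less RNA per cell cannot be told apart.

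Fgf5, the ligand of the set, was lowest in untreated shCTR cells and far higher in the other 3 groups. Its probe lies at chr5:98705980-98706039 on mm9, plus strand, and was well above background on all 15 arrays. In retinoic acid its log2 level was −1.11, −1.12 and −1.03 with sh4, against −1.77, −1.78, −1.82 and −1.92 with shCTR. Untreated, it was −1.42, −1.72, −1.66 and −1.77 with sh4, against −4.12, −4.23, −4.25 and −4.42 with shCTR. No pair of groups overlapped, but the untreated sh4 and treated shCTR groups met at −1.77 at this rounding, and their means of −1.64 ± 0.15 and −1.82 ± 0.07 (SD, n = 4 each) did not differ beyond their spread (difference 0.18 ± 0.08, SE, adjusted p = 0.081 by limma). The remaining steps in the order sh4 in retinoic acid, untreated sh4, shCTR in retinoic acid, untreated shCTR passed the test.

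Otx2 had 4 separate levels, with the 2 treated groups low and the 2 untreated groups high. The probe is at chr14:49277855-49277914 on mm9, minus strand, and was well above background on all 15 arrays. The level in retinoic acid was −4.89, −4.76 and −4.56 with sh4, against −3.8, −4.01, −3.86 and −3.82 with shCTR. In untreated cells it was 1.86, 2.02, 2.22 and 2.07 with sh4, against 0.76, 0.9, 0.81 and 1.01 with shCTR. Thus sh4 cells held the highest level when untreated and the lowest in retinoic acid. No pair of groups overlapped, and each step in the order (untreated sh4, untreated shCTR, treated shCTR, treated sh4) passed the test.

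Pou3f1, the POU factor, had overlapping hairpin groups in retinoic acid and separate ones in untreated cells. Its probe lies at chr4:124337692-124337751 on mm9, plus strand, and all 15 arrays measured it well above background. Treated cells had levels of −2.32, −2.11 and −2.42 with sh4, against −2.41, −2.11, −2.43 and −2.35 with shCTR. Untreated cells had 0.97, 1.03, 1.28 and 1.22 with sh4, against −0.89, −0.96, −0.85 and −0.79 with shCTR. Both treated groups were below both untreated groups, of which sh4 was the higher.

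Foxd3 was close to or below detection in retinoic acid and well measured in untreated cells. The probe, at chr4:99325170-99325229 on mm9, plus strand, was well above background on 9 arrays, and it passed the filter on dim probes only through the untreated groups. In retinoic acid 1 of 3 sh4 arrays and 0 of 4 shCTR arrays measured it well above background. The values there were −8.6, −8.89 and −5.8 with sh4, against −7.75, −7.87, −7.64 and −9.11 with shCTR. The measured array was sh4 replicate 4, at −5.8, which also had the highest summed level of ES cell markers in its group, 8.23 against 4.11 and 3.89; the part of those markers in the value was not tested. Untreated levels were −0.51, −0.34, −0.22 and −0.55 with sh4, against 0.02, 0.37, 0.41 and 0.29 with shCTR. All 4 untreated sh4 arrays were thus below all 4 untreated shCTR arrays.

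The neighbours Zic2 and Zic5 were both lower in treated than in untreated cells. The Zic2 probe lies at chr14:122879296-122879355, plus strand, and the Zic5 probe at chr14:122858394-122858453, minus strand, both on mm9. Zic2 had levels of −5.11, −6.27 and −5.5 in treated sh4 cells and −5.2, −5.11, −4.58 and −4.98 in treated shCTR cells, against −3.7, −3.81, −3.47 and −2.68 in untreated sh4 cells and −2.99, −2.44, −3.07 and −2.75 in untreated shCTR cells. At either treatment the hairpin groups of Zic2 overlapped, and its treated groups did not overlap its untreated groups. Zic5 had levels of −7.97, −8.16 and −7.2 in treated sh4 cells and −6.69, −7.72, −6.87 and −6.76 in treated shCTR cells, against −3.81, −4.09, −3.81 and −3.97 in untreated sh4 cells and −3.75, −3.97, −3.84 and −3.8 in untreated shCTR cells. Zic5 was well above background on 1 of 3 treated sh4 arrays and on every array of the other groups. Among the 4 groups, the neighbours that did not differ beyond their spread were the 2 untreated groups for both genes (adjusted p = 0.14 for Zic2 and 0.89 for Zic5) and the 2 treated groups for Zic2 (adjusted p = 0.16).

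**Figure D1:**
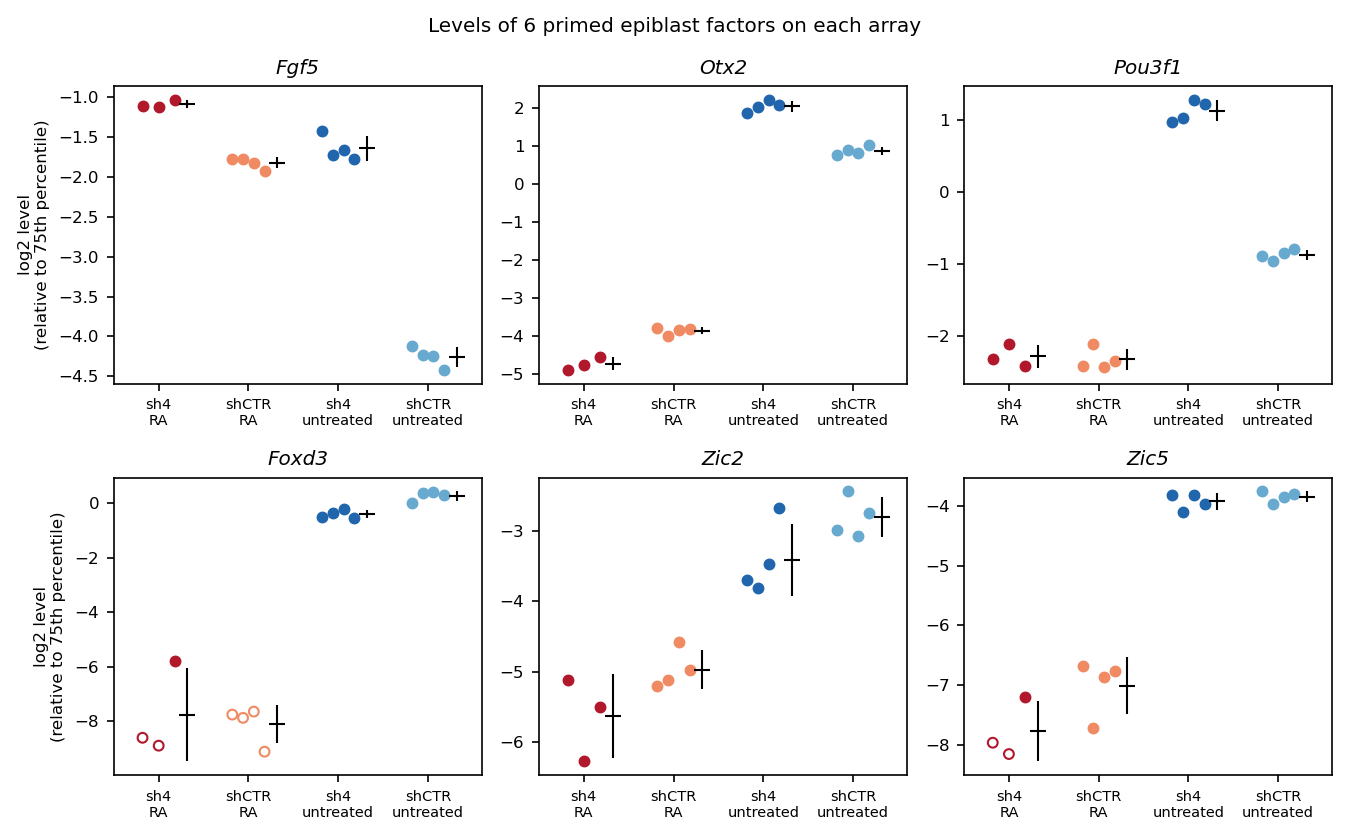
Each panel plots 1 gene, with the log2 level relative to the array's 75th percentile on the vertical axis and the 4 groups on the horizontal axis (RA, retinoic acid). Points are arrays, open where the probe was not well above background, and the black marks are the mean ± SD (n = 3 for sh4 in retinoic acid, n = 4 otherwise). Fgf5 is lowest in untreated shCTR cells, and the other 5 genes are lowest in the treated groups.

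In untreated cells, 3 of the 6 genes rose with sh4 and 0 fell, against 14.4% of all tested genes that rose and 14.1% that fell. Fgf5 rose 6.11-fold (log2 fold change 2.61 ± 0.08, SE, adjusted p = 1.7e-10 by limma), the 52nd highest value among 22187 genes measured well above background on every array of both groups. Pou3f1 rose 3.99-fold (2 ± 0.1, adjusted p = 5.3e-09), the 113th highest, and Otx2 rose 2.25-fold (1.17 ± 0.09, adjusted p = 6e-07), the 442nd highest. The 3 differences had the same sign on each of the 4 slides: 2.7, 2.51, 2.59 and 2.66 for Fgf5, 1.86, 1.99, 2.12 and 2.01 for Pou3f1, and 1.1, 1.11, 1.41 and 1.06 for Otx2. With the slide as a block they were 2.61, 2 and 1.17. Under normexp background correction, which adds an offset to every spot and so weighs most on dim ones, the Fgf5 difference was 1.9 (adjusted p = 2.9e-09), which is a fold smaller by more than 1.5 times.

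Foxd3, Zic2 and Zic5 did not pass the test in untreated cells. Foxd3 was at 62.6% of the shCTR level (log2 difference −0.68 ± 0.54, adjusted p = 0.45), with differences of −0.53, −0.7, −0.63 and −0.84 on the 4 slides. Its groups did not overlap, as for 4 of the 6 genes and 28.3% of all tested genes. Its spread was an SD of 0.69 to 1.7 in the treated groups and 0.15 to 0.17 in the untreated groups, and the model uses 1 spread for all 4. A fit on the 2 untreated groups alone gave the same difference with adjusted p = 0.0039, and normexp correction gave −0.68 with adjusted p = 8.2e-05. Zic2 differed by −0.6 ± 0.28 (adjusted p = 0.14), with −0.71, −1.36, −0.4 and 0.07 on the 4 slides. Without sh4 replicate 4, whose Zic2 level of −2.68 was the highest of its group, the difference was −0.84 (adjusted p = 0.026). Zic5 differed by −0.08 ± 0.23 (adjusted p = 0.89).

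In retinoic acid, sh4 cells had more Fgf5 and less Otx2 than shCTR cells, and Pou3f1 did not pass the test. Of the 6 genes 1 rose and 2 fell, against 10.9% and 10.3% of all tested genes, and 2 had groups that did not overlap, against 32.4% of all. Fgf5 rose 1.67-fold (0.74 ± 0.09, adjusted p = 6.3e-05), with 0.67, 0.66 and 0.79 on the 3 slides that held both groups. Otx2 fell to 55.0% of the shCTR level (−0.86 ± 0.1, adjusted p = 4.5e-05), with −1.08, −0.75 and −0.71 within slides. Pou3f1 differed by 0.04 ± 0.1 (adjusted p = 0.87). With the slide as a block the values for Fgf5, Otx2 and Pou3f1 were 0.69, −0.84 and 0.06.

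The other fall, of Zic5, was fragile. Zic5 differed by −0.77 ± 0.25 (adjusted p = 0.042), with −1.28, −0.44 and −0.33 within slides, and 2 of the 3 sh4 arrays had no signal well above background. Under normexp correction the difference was −0.05 (adjusted p = 0.91), and adjusted p ranged from 0.0029 to 0.17 when each array was left out in turn. Zic2 differed by −0.66 ± 0.3 (adjusted p = 0.16), and its differences of 0.09, −1.16 and −0.92 within slides did not share a sign. Foxd3 had within-slide differences of −0.85, −1.01 and 1.83, mostly from arrays below detection, and no fold is given.

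**Figure D2:**
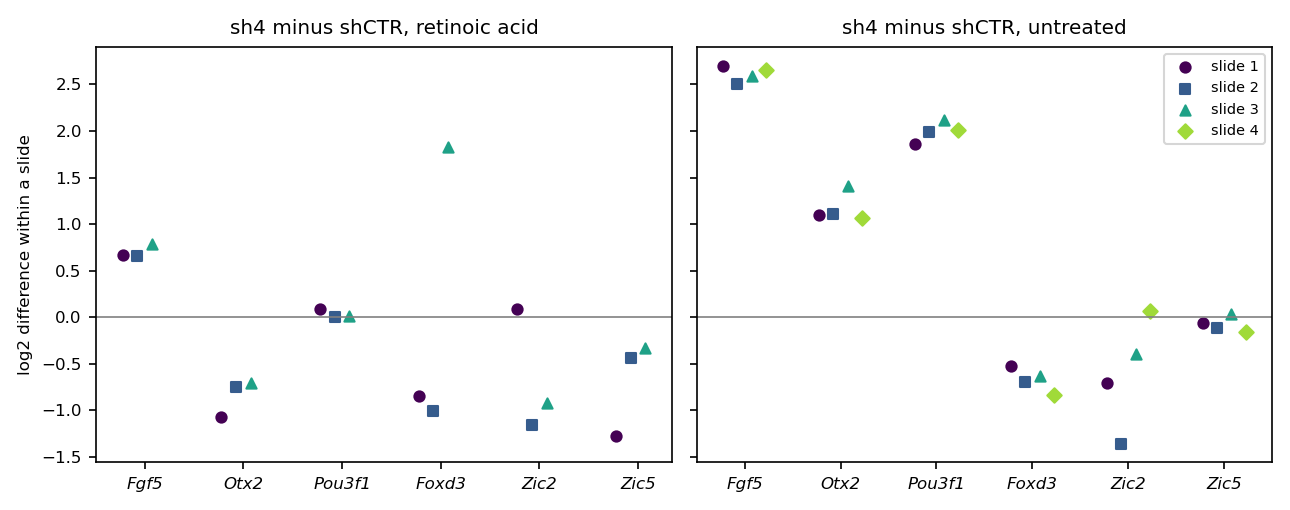
The horizontal axis lists the 6 genes and the vertical axis gives the log2 difference, sh4 minus shCTR, between the 2 arrays on 1 slide, in retinoic acid (left, 3 slides) and untreated (right, 4 slides). Each marker is 1 slide. In retinoic acid Fgf5 lies above and Otx2 below 0 on all 3 slides, while in untreated cells Fgf5, Otx2 and Pou3f1 lie above 0 on all 4.

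The visceral endoderm, an extraembryonic lineage in which Otx2 is also active, was checked through 14 of its genes. Their summed level was 14.02 to 14.3 in sh4 cells in retinoic acid and 58.0 to 68.2 in shCTR cells in retinoic acid, and 0.884 to 0.999 in untreated sh4 cells and 2.06 to 2.28 in untreated shCTR cells. Between treated sh4 and treated shCTR cells all 14 fell, against 10.3% of all tested genes. Among them were Hnf4a (−3.51 ± 0.11, adjusted p = 5.6e-10 by limma), a regulator of endoderm metabolism, and Ttr (−3.41 ± 0.15, adjusted p = 4.9e-09), a carrier of thyroid hormone and retinol-binding protein. The list therefore moved in the direction of Otx2 between the treated groups, and its part in the Otx2 difference was not tested. In untreated cells 8 of the 14 fell and 1 rose, against 14.1% and 14.4% of all tested genes, while Otx2 rose. With retinoic acid all 14 rose in shCTR cells (median 4.2), against 29.0% of all tested genes. In sh4 cells 10 rose and 1 fell (median 3.77), against 27.1% and 31.6%, while Otx2 fell with either hairpin. Ttr was well above background on no untreated array and Afp on no untreated sh4 array.

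Retinoic acid lowered 5 of the 6 genes and raised Fgf5, with either hairpin. In shCTR cells 1 rose and 5 fell, against 29.0% and 33.5% of all tested genes, and in sh4 cells 1 rose and 5 fell, against 27.1% and 31.6%. All 6 had treated and untreated groups that did not overlap with either hairpin, as did 59.9% of all genes in shCTR and 57.9% in sh4. Foxd3 passed the filter on dim probes only through the untreated groups. Its fall and its separate groups were thus favoured by the filter, and its place in these counts is no support. The 2 responses have no array in common, but each shares arrays with both hairpin comparisons. They are set side by side here, and their difference is the interaction given below. The median difference over all tested genes was −0.12 with either hairpin. It was −0.33 in shCTR and −0.26 in sh4 cells when arrays were scaled by their median, and the calls of the 6 genes held there as well.

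Fgf5 rose 5.40-fold with retinoic acid in shCTR cells (2.43 ± 0.08, adjusted p = 1.5e-11) and 1.47-fold in sh4 cells (0.56 ± 0.09, adjusted p = 0.00012). The within-slide values were 2.35, 2.45, 2.43 and 2.51 in shCTR cells and 0.32, 0.6 and 0.63 in sh4 cells. Otx2 kept 0.912% of its untreated level in sh4 cells (−6.78 ± 0.1, adjusted p = 2.3e-14), the 5th lowest value among 22065 genes measured well above background on every array of both groups. In shCTR cells Otx2 kept 3.73% (−4.74 ± 0.09, adjusted p = 1.1e-13), the 53rd lowest among 21948. Pou3f1 kept 9.43% in sh4 cells (−3.41 ± 0.1, adjusted p = 8.2e-12) and 36.5% in shCTR cells (−1.45 ± 0.1, adjusted p = 1.3e-08). Within slides Otx2 lay between −6.78 and −6.74 in sh4 cells and between −4.91 and −4.56 in shCTR cells, and Pou3f1 between −3.7 and −3.14 and between −1.58 and −1.15. For Fgf5 in shCTR cells normexp correction gave 1.73 (adjusted p = 4.1e-10).

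In shCTR cells 0 of 4 treated arrays measured Foxd3 well above background. Each treated array was therefore set to its lowest signal well above background, or to its own Foxd3 signal where that was higher. On that basis Foxd3 was 249-fold lower in treated than in untreated shCTR cells, a fold that depends on this floor and is not a strict bound. The fitted change, −8.37 ± 0.54 (adjusted p = 9.5e-09), is not a bound either. In sh4 cells 1 of 3 treated arrays measured it, and on that slide it differed by −5.59 from the untreated array. The fitted change in sh4 cells, −7.36 ± 0.58 (adjusted p = 1e-07), includes the 2 arrays below detection and gives a direction but no exact size. Zic2 kept 21.6% of its untreated level in sh4 cells (−2.21 ± 0.3, adjusted p = 2.2e-05) and 22.5% in shCTR cells (−2.15 ± 0.28, adjusted p = 1.2e-05). Zic5 fell in shCTR cells (−3.17 ± 0.23, adjusted p = 2.9e-08), where every array measured it. Its fall in sh4 cells (−3.86 ± 0.25, adjusted p = 1.1e-08) has no exact size, because 2 of 3 treated arrays were not well above background. Under normexp correction the falls of these dim probes were smaller by more than 1.5 times in fold: −3.81 and −4.56 for Foxd3, −1.23 and −1.42 for Zic2, and −1.31 and −1.38 for Zic5, in sh4 and shCTR cells, all with adjusted p under 0.05. The same correction gave −5.84 for Otx2 in sh4 cells and −4.19 in shCTR cells.

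The interaction asks whether the hairpin difference in retinoic acid departs from the untreated one. It was negative and called for 3 of the 6 genes, Fgf5, Otx2 and Pou3f1, against 10.2% of all tested genes called in that direction, and 0 were called positive, against 10.2%. For Fgf5 the hairpin difference was smaller in treated than in untreated cells (−1.88 ± 0.12, adjusted p = 2.9e-07). For Otx2 it changed sign (−2.03 ± 0.14, adjusted p = 4.1e-07), and for Pou3f1 it was 0.04 in treated cells, against 2 in untreated cells (−1.95 ± 0.14, adjusted p = 6.9e-07). The 3 values were close in size, and on the 3 slides with all groups they were −2.03, −1.86 and −1.8 for Fgf5, −2.19, −1.86 and −2.12 for Otx2 and −1.77, −1.98 and −2.12 for Pou3f1. Normexp correction gave −1.25, −1.65 and −1.85. Zic2 had −0.06 ± 0.41 (adjusted p = 0.97) and Zic5 −0.69 ± 0.34 (adjusted p = 0.19, with 2 of 3 treated sh4 arrays not well above background). Foxd3 did not pass the test (adjusted p = 0.48), and its treated arrays, mostly below detection, give no size. The Zic5 value was called without sh4 replicate 4 in retinoic acid (−0.98, adjusted p = 0.039) and without shCTR replicate 2 in retinoic acid (−0.93, adjusted p = 0.024).

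**Figure D3:**
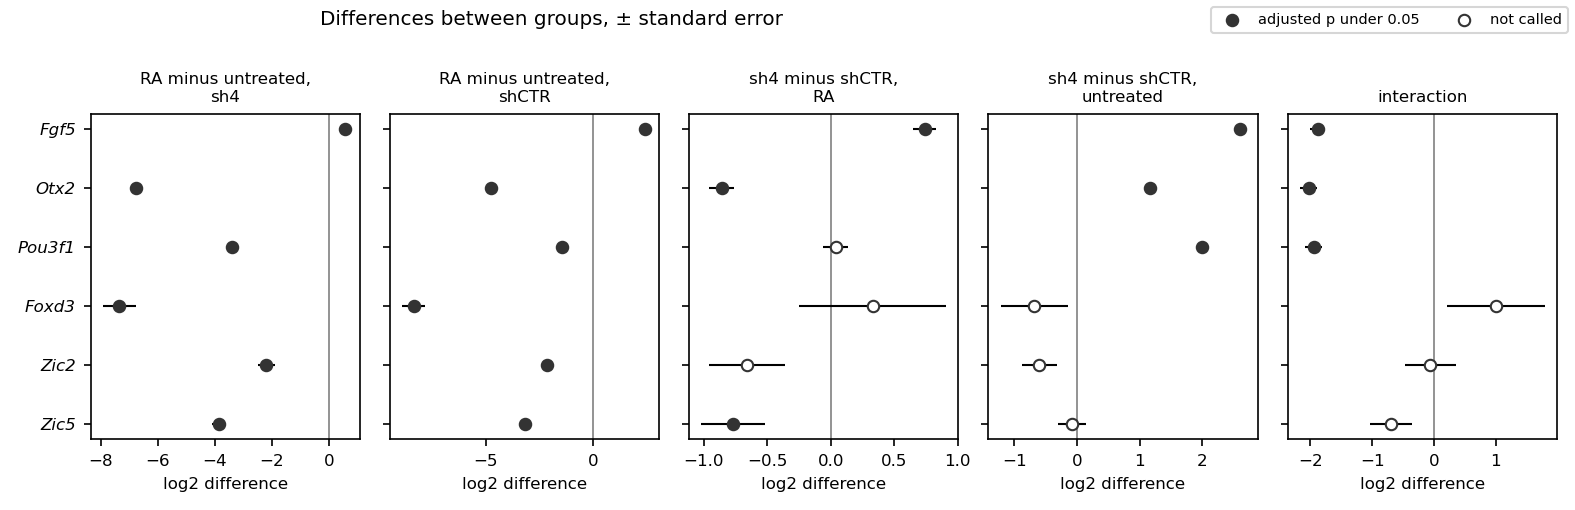
Each panel gives 1 comparison, with the log2 difference ± standard error on the horizontal axis and the 6 genes down the vertical axis. RA stands for retinoic acid. Filled points have an adjusted p under 0.05 and open points do not. The 5 transcription factor genes lie left of 0 in both retinoic acid panels with Fgf5 to the right, and Fgf5, Otx2 and Pou3f1 are filled and negative in the interaction panel.

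The genes whose levels followed each member most closely were found by the root mean square difference between log2 levels over the 15 arrays, after each gene was centred on its own mean. For Fgf5 they were Prss8, a membrane serine protease (0.12), Mab21l4 (0.24) and the ligand gene Bmp8b (0.27), against a median of 1.33 over all tested genes. Nphs1os and Chrna9 (0.5 each) were among those closest to Otx2, against a median of 2.86. For Pou3f1 the closest were Insm1, a zinc finger factor (0.24), LOC100048617 (0.26) and Ccno (0.27), against 1.42. Foxd3 had Tdgf1, the Nodal co-receptor Cripto (0.45), Olfr985 (0.59) and Fgf4 (0.69), against 3.97. Zic2 was nearest to Pgc (0.31), Pycr1 (0.34) and Smtnl1 (0.35), against 1.2, and Zic5 to NAP103912-1, Slc17a9 (0.23 each) and Triml1 (0.24), against 1.77. Within the set the closest pair was Zic2 and Zic5 (0.81) and the most distant Fgf5 and Foxd3 (4.86). Foxd3 was well above background on 9 of the 15 arrays and Zic5 on 13, so their distances include values that were not.

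The measured genes next to Fgf5 on the chromosome also rose with sh4 in untreated cells, as did 14.4% of all tested genes. On GRCm38.p6, Cfap299, a cilia- and flagella-associated gene, is adjacent to it, and Prdm8, a PR domain zinc finger gene, lies on the other side with 1 gene between. Prdm8 had levels of −5.29, −5.19 and −5.42 in treated sh4 cells, −5.72, −5.89, −5.78 and −6.17 in treated shCTR cells, −5.64, −5.78, −5.75 and −5.77 in untreated sh4 cells and −7.12, −7.02, −7.5 and −7.44 in untreated shCTR cells. As for Fgf5, the untreated shCTR arrays were the lowest. Prdm8 rose with sh4 in untreated cells (1.54 ± 0.12, adjusted p = 4.7e-07) and in retinoic acid (0.59 ± 0.13, adjusted p = 0.0053), and with retinoic acid in sh4 cells (0.44 ± 0.13, adjusted p = 0.011) and in shCTR cells (1.38 ± 0.12, adjusted p = 2.3e-07). Cfap299 had levels of −5.57, −5.6 and −5.6 in treated sh4 cells, −5.81, −5.6, −5.56 and −5.47 in treated shCTR cells, −4.43, −4.51, −4.47 and −4.44 in untreated sh4 cells and −5.9, −6.59, −6.41 and −6.18 in untreated shCTR cells. It rose with sh4 in untreated cells (1.81 ± 0.12, adjusted p = 1.1e-07), and the treated groups differed by 0.02 ± 0.13 (adjusted p = 0.96). With retinoic acid Cfap299 fell by 1.13 in sh4 cells (adjusted p = 5e-06), where Fgf5 rose, and rose in shCTR cells (0.66 ± 0.12, adjusted p = 0.00029), as Fgf5 did.

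In untreated cells 14.4% of all tested genes rose and 14.1% fell with sh4, and the measured neighbours of the other members gave no hairpin call. These were Utp11 (−0.13 ± 0.09) and Gm2164 (−0.24 ± 0.49) beside Pou3f1, Alg6 (0.09 ± 0.07) and Atg4c (−0.18 ± 0.07) beside Foxd3 and Pcca (−0.26 ± 0.18) beside Zic2. Otx2os1, the antisense RNA of Otx2, was well above background on 1 array and was not tested, and 2610035F20Rik, the RNA between Zic2 and Zic5, on 0.

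**Figure D4:**
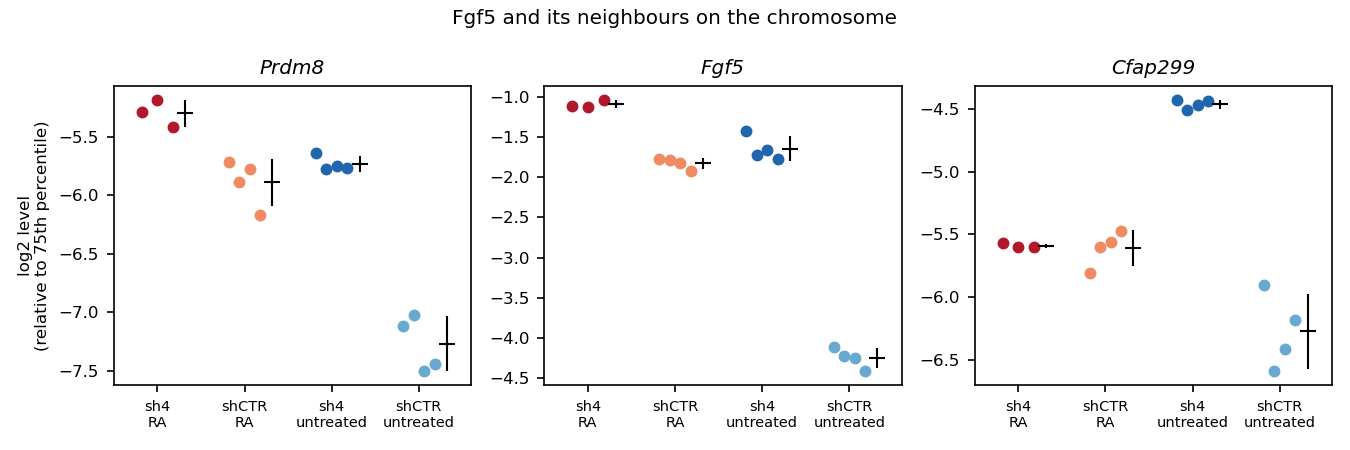
Each panel plots the log2 level relative to the array's 75th percentile (vertical axis) of 1 gene by group (horizontal axis), with Fgf5 between its neighbours Prdm8 and Cfap299. Points are arrays and black marks the mean ± SD (n = 3 or 4). Untreated shCTR cells are lowest in all 3 panels, and untreated sh4 cells are highest only for Cfap299.

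Further genes of the formative and primed epiblast moved both ways. Of 21 listed genes, all tested, 10 rose and 1 fell with sh4 in untreated cells (median log2 difference 0.26, against 0.02 over all genes tested), where 14.4% and 14.1% of all genes did. The rises were led by Cldn6, a tight junction claudin (3.37 ± 0.08, adjusted p = 1.5e-11 by limma), and the Wnt ligand gene Wnt8a (3.02 ± 0.33, adjusted p = 1.1e-05), which 3 of 4 untreated shCTR arrays measured well above background. Lefty2, a Nodal antagonist, was the 1 that fell (−0.52 ± 0.12, adjusted p = 0.0046). Fgf15, an FGF ligand gene, differed by −0.16 ± 0.3 (adjusted p = 0.81).

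In retinoic acid 4 of the 21 rose and 6 fell with sh4 (median −0.04, against 0.04 over all genes), where 10.9% and 10.3% of all genes did. Grhl2, an epithelial transcription factor, rose (1.92 ± 0.11, adjusted p = 7.8e-08), as did Lef1, a Wnt effector (1.06 ± 0.15, adjusted p = 0.00016), while Lefty2 (−1.61 ± 0.13, adjusted p = 1.4e-06) and Etv4, an ERK-responsive ETS factor (−0.91 ± 0.19, adjusted p = 0.0029), fell. For the interaction 11 of the 21 were called negative and 0 positive (median −0.62, against 0.01 over all genes), against 10.2% of all genes in either direction. Wnt8a (−3.51 ± 0.49, adjusted p = 0.00019) and Cldn6 (−3.03 ± 0.12, adjusted p = 3.2e-09) had the largest negative values. The count of negative calls was 6 when arrays were scaled by their median, and 6 to 12 over all settings run, with at most 1 positive. Retinoic acid raised 6 and lowered 11 of the 21 in sh4 cells (median −1.01), against 27.1% and 31.6% of all genes. In shCTR cells it raised 10 and lowered 10 (median −0.37), against 29.0% and 33.5%. Etv4 fell in sh4 cells (−5.08 ± 0.19, adjusted p = 4.2e-11) and in shCTR cells (−4.45 ± 0.17, adjusted p = 4.6e-11), as did Tcf15, a bHLH factor of the formative epiblast (−4.86 ± 0.14, adjusted p = 3.5e-12, and −3.94 ± 0.13, adjusted p = 7.5e-12). Cdh2, N-cadherin, rose in both (2.96 ± 0.11, adjusted p = 5.8e-11, and 3.57 ± 0.1, adjusted p = 2.7e-12).

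**Figure D5:**
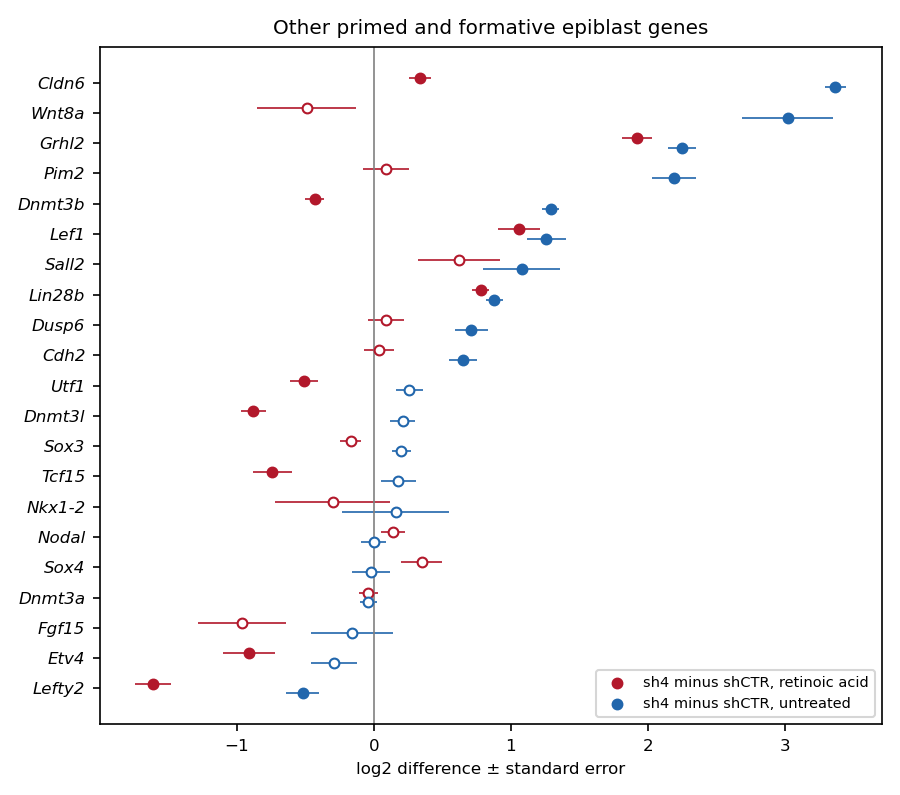
The vertical axis lists 21 formative and primed epiblast genes other than the 6 members, sorted by their untreated difference, and the horizontal axis gives the log2 difference, sh4 minus shCTR, ± standard error in retinoic acid (red) and untreated (blue). Filled points have an adjusted p under 0.05. In untreated cells 10 genes are filled to the right and Lefty2 to the left, while in retinoic acid 4 are filled to the right and 6 to the left.

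Naive genes, which are shut off in the primed epiblast, were listed with core pluripotency genes such as Pou5f1 and Sox2, which stay on there. Those called with sh4 were lower, apart from 1 gene in each treatment. In untreated cells 7 of 18 fell and 1 rose (median −0.38), against 14.1% and 14.4% of all genes, and 4 fell without the 3 arrays that the scanner software rated as needing evaluation (4 to 10 over all settings run). The falls were led by Tbx3 (−1.15 ± 0.07, adjusted p = 2.8e-08) and Klf4 (−1.05 ± 0.07, adjusted p = 9.6e-08), both naive transcription factors, and Dppa3, a maternal factor also called Stella, rose (3.01 ± 0.08, adjusted p = 3.1e-11). In retinoic acid 11 fell and 1 rose, against 10.3% and 10.9% of all genes. Tcl1 (−2.69 ± 0.24, adjusted p = 4.3e-06) and Pou5f1 (−1.8 ± 0.22, adjusted p = 5.6e-05) fell most, and Sox2 rose (0.84 ± 0.12, adjusted p = 0.00017). Retinoic acid lowered 17 of the 18 in sh4 cells (median −4.7) and 17 in shCTR cells (median −3.9), against 31.6% and 33.5% of all genes. Fgf4, the main FGF ligand of ES cells, fell in sh4 cells (−7.44 ± 0.51, adjusted p = 2.3e-08) and in shCTR cells (−6.91 ± 0.47, adjusted p = 1.7e-08).

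Relatives of the 6 genes included some that rose with retinoic acid. Of 12 listed, 8 were tested, and Otx1, Crx, Pou3f2 and Pou3f4 were well above background on no array. With sh4 in untreated cells 0 of the 8 rose and 3 fell, against 14.4% and 14.1% of all genes. The 3 were Foxd1 (−1.59 ± 0.09, adjusted p = 2.4e-08), Foxd2 (−0.8 ± 0.07, adjusted p = 8e-07) and Fgf3 (−0.48 ± 0.13, adjusted p = 0.012). In retinoic acid 2 of the 8 rose and 1 fell with sh4, against 10.9% and 10.3% of all genes. Foxd1 (0.65 ± 0.1, adjusted p = 0.00035) and Zic1 (0.57 ± 0.11, adjusted p = 0.002) rose and Fgf3 fell (−2.56 ± 0.14, adjusted p = 4.8e-08). Retinoic acid raised Foxd2 by 4.42 in sh4 cells (adjusted p = 3.6e-14) and 3.65 in shCTR cells (adjusted p = 5.5e-14), Foxd1 by 4.24 (adjusted p = 9.9e-13) and 2 (adjusted p = 2.6e-10), and Zic1 by 3.45 (adjusted p = 1e-11) and 2.8 (adjusted p = 2.2e-11), where Foxd3, Zic2 and Zic5 fell. Of the 8, 4 rose and 2 fell in sh4 cells, against 27.1% and 31.6% of all genes. In shCTR cells 4 rose and 1 fell, against 29.0% and 33.5%. Fgf8 fell in sh4 cells (−0.47 ± 0.18, adjusted p = 0.036) and in shCTR cells (−0.78 ± 0.16, adjusted p = 0.00088). Fgf3 fell in sh4 cells (−1.13 ± 0.14, adjusted p = 9.6e-06) and rose in shCTR cells (0.95 ± 0.13, adjusted p = 2e-05).

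The receptors and co-receptors of FGF ligands were measured on every array for all 7 listed genes. With sh4 in untreated cells 3 of the 7 rose and 1 fell, against 14.4% and 14.1% of all genes. Gpc4, a glypican co-receptor (1.49 ± 0.08, adjusted p = 1.7e-08), Fgfr1 (0.42 ± 0.08, adjusted p = 0.0017) and the syndecan Sdc1 (0.38 ± 0.12, adjusted p = 0.027) rose, and Fgfr4 fell (−0.37 ± 0.09, adjusted p = 0.0073). In retinoic acid 3 rose and 2 fell, against 10.9% and 10.3% of all genes, with Gpc4 (1.08 ± 0.09, adjusted p = 1.9e-06) highest and Fgfr3 (−1.44 ± 0.43, adjusted p = 0.028) lowest. With median scaling 1 rose and 0 fell untreated, and 1 rose and 2 fell in retinoic acid. Retinoic acid raised 4 and lowered 1 in sh4 cells, against 27.1% and 31.6% of all genes, and raised 6 in shCTR cells, against 29.0%. Gpc4 rose in both (1.93 ± 0.09, adjusted p = 4e-10, and 2.34 ± 0.08, adjusted p = 1.8e-11).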

How the data were processed

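Total RNA of 15 samples (500 ng each) was hybridised to Agilent 1-colour arrays. Per the file headers, the deposited intensity values came from Agilent Feature Extraction 10.7.3.1, which had subtracted background without scaling between arrays; the coordinates are mm9. A second file deposited by the authors holds log2 values. Their making was not given in the sources used here. Normexp correction with quantile normalization matched them (median absolute difference 0.00608), and they were used for 1 alternative.

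From the scanner intensities, marked spots were left out, spots of a probe averaged (39312 probes used), and log2 of the processed signal taken minus each array's 75th percentile. A probe was kept if well above background on 3 or more arrays of any group, and the kept probe with the highest mean stood for its gene (25139 genes). Differences were tested two-sided with limma 3.58.1 (R 4.3.3) in 1 model of the 4 groups, with Benjamini-Hochberg adjustment over all genes and a threshold of 0.05, in 5 comparisons. "Rose", "fell" and "raised" mean an adjusted p under the threshold. The number of arrays limits the precision, and 75th percentiles of 1509 to 1911 intensity units show like signal on all arrays.

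The members and the 8 gene lists were chosen with earlier results of these data known. Named were the 6 members, at most the 2 largest rises and 2 largest falls of each list in each comparison, list genes of the members' families, the 3 genes most like each member, chromosomal neighbours and Phf19; 1 gene that the rule names is not reported here. Symbols came from RefSeq (GRCm38.p6) where matched. Alternatives were 2 normexp settings (offset 50), quantile and median scaling, the authors' log2 values, other probe filters, the mean of probes, slide and replicate blocks, separate fits, and leaving out arrays. Arrays of the same slide correlated after group means were removed (r of 0.115 to 0.607 in 21 pairs). Figures were drawn with matplotlib 3.10.9 in Python 3.11.15.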

Additional observations from a re-analysis of the deposited data

Results flagged for a closer look

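The hairpin difference in retinoic acid departed from the untreated one for 3 of the 6 genes, by a test of the interaction in limma. The values were −1.88 for Fgf5 (adjusted p = 2.9e-07), −2.03 for Otx2 (adjusted p = 4.1e-07) and −1.95 for Pou3f1 (adjusted p = 6.9e-07), and each was negative on all 3 slides that held the 4 groups.

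A single array stood far from the rest of its group in 2 of 18 sets of 4 arrays checked; chance alone marks about 1 in 20 such sets. Foxd3 in shCTR replicate 4 in retinoic acid was at −9.11, with the nearest array at −7.87 and that gap 0.84 of the group's range; no array of this group was well above background for Foxd3. Zic5 in shCTR replicate 2 in retinoic acid was at −7.72, with the nearest array at −6.87 and the gap 0.831 of the range.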

How the results depend on the processing

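Of 30 comparisons of a member, 21 were called, and 20 of those kept their direction and call under each of up to 27 settings that could be computed. Over 794 settings in all, 748 kept direction and call, 21 lost the call, 10 gained it and 15 turned the sign. The call that did not hold was Zic5 with sh4 in retinoic acid. It was −0.07 (adjusted p = 0.61) with normexp and quantile normalization, −0.05 with normexp and the 75th percentile, −0.08 with the authors' log2 values, −0.71 with quantile and −0.74 with median scaling. It was −0.77 with no filter (adjusted p = 0.056), −0.77 in a fit of the 2 groups (0.17) and −0.67 without the 3 arrays rated by the scanner software as needing evaluation (0.2), and −1.05 to −0.57 when arrays were left out in turn, which ended the call for 13 of 15 arrays. Foxd3 untreated gained a call at −0.67 (adjusted p = 0.0001) and −0.68 (8.2e-05) with the 2 normexp settings, −0.67 (0.00011) with the authors' values and −0.68 (0.0039) in a fit of the 2 groups. The Foxd3 interaction, which rests on treated arrays mostly below detection, gained one at 0.71 (0.0026), 0.76 (0.0019) and 0.71 (0.0028) in the first 3 of these. The Zic2 interaction turned positive at 0.19 and 0.19 with normexp, 0.18 with the authors' values, 0.0043 with median scaling and 0.03 with the slide block, and the Zic5 interaction at 0.0031, 0.07 and 0.0017 with normexp and the authors' values. Leaving out arrays gave −0.65 to 0.89 for Foxd3, −0.05 to 0.11 for Pou3f1 with sh4 in retinoic acid, −0.84 to −0.47 for Zic2 untreated, and −0.32 to 0.26 for Zic2 and −0.98 to −0.5 for Zic5 in the interaction. Foxd3 and Zic5 have no value where only probes well above background on all 15 arrays are kept. The cause of these changes was not tested.

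Genes called with sh4 untreated numbered 7173, and 4645 with normexp and the 75th percentile. In retinoic acid they were 5332, and 3394 with that setting and 3299 with median scaling; for the interaction 5145, 3053 and 2978, with an all-gene median of 0.115 in place of 0.012 under that normexp setting. With retinoic acid in shCTR cells 7288 genes rose and 8409 fell, against 5714 and 10411 with median scaling and 5286 and 9302 with normexp and the 75th percentile (all-gene medians −0.123, −0.326 and −0.228). Replicate numbers were taken not to pair the samples. Same-numbered arrays on other slides correlated with r of −0.533 to 0.558 in 6 pairs after group means were removed. These pairs come from sh4 in retinoic acid only, replicate 3 (−0.533 to −0.349) and replicate 4 (0.412 to 0.558). For the other arrays number and slide coincide, so a pairing by number cannot be told apart from the slide. The replicate block changed 0 calls of the members and gave 8174 genes untreated and 6302 in retinoic acid. The slide block changed 0 calls of the members.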

Other observations

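Markers of lineages in which Zic, Otx2 or Foxd3 genes act later were mixed. Of 17 early neural ectoderm genes, 3 rose and 6 fell with sh4 in untreated cells, against 14.4% and 14.1% of all genes. There Pax6, an eye and neural tube factor, rose (1.31 ± 0.13, adjusted p = 2.9e-06 by limma) and Rax, an eye field factor, fell (−1.57 ± 0.08, adjusted p = 1.2e-08). In retinoic acid 5 rose and 3 fell with sh4, against 10.9% and 10.3% of all genes, again with Pax6 higher (0.59 ± 0.14, adjusted p = 0.0068) and Rax lower (−0.69 ± 0.09, adjusted p = 0.0001). With median scaling these counts in retinoic acid were 1 and 2. Retinoic acid raised 7 and lowered 4 of them in sh4 cells, against 27.1% and 31.6% of all genes, and raised 8 and lowered 5 in shCTR cells, against 29.0% and 33.5%. Over the 14 measured on every array, 4 rose and 4 fell in sh4 cells and 5 rose and 5 fell in shCTR cells. The rises were led by Hoxb1, a hindbrain homeobox gene, and Dcx, a microtubule protein of young neurons, both well above background on every treated and no untreated array. Each untreated array was set to its lowest signal well above background, or to the gene's own signal where that was higher. On that basis Hoxb1 was 543-fold higher in treated than in untreated sh4 cells and 368-fold in shCTR cells. Dcx was 12.1-fold and 7.50-fold higher. These folds depend on the floor, are not strict bounds and were not themselves tested. Hoxb1 and Dcx passed the filter on dim probes only through the treated groups. The filter thus favoured their calls, which were made on levels without the floor. The falls were led by Sox1, the early neural plate factor, in sh4 cells (−2.16 ± 0.16, adjusted p = 6e-08) and in shCTR cells (−2.51 ± 0.15, adjusted p = 4.2e-09), and by Tubb3, a neuronal tubulin (−1.79 ± 0.18, adjusted p = 8.7e-07, and −2.03 ± 0.16, adjusted p = 8.9e-08).

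Of 11 neural crest genes 10 were tested. With sh4, 3 rose and 2 fell in untreated cells, against 14.4% and 14.1% of all genes. In retinoic acid 1 rose, against 10.9% of all genes, a count of 0 to 4 over the settings run. It was Tfap2a (0.3 ± 0.09, adjusted p = 0.033). Retinoic acid raised 8 in sh4 cells and 7 in shCTR cells, against 27.1% and 29.0% of all genes, and lowered Ngfr in both. Sox9 was well above background on no untreated array. With the same floor it was 47.5-fold higher in treated than in untreated sh4 cells and 48.0-fold in shCTR cells, and these folds were not tested. Sox9 too passed the filter on dim probes only through the treated groups. Ets1 rose by 3.23 ± 0.08 (adjusted p = 1.9e-12) and 4.21 ± 0.08 (adjusted p = 5.6e-14). Foxd3, which acts in the neural crest, fell in the same arrays. Of 14 fibroblast genes 13 were tested, and 11 rose in sh4 cells and 12 in shCTR cells with retinoic acid, against 27.1% and 29.0% of all genes. Of the 8 measured on every array, 6 and 7 rose. The summed level of the 14 was 10.98 to 11.6 in treated sh4 and 8.91 to 11.1 in treated shCTR cells, and 1.38 to 1.67 in untreated sh4 and 3.21 to 3.68 in untreated shCTR cells. Thy1 was the largest part of the untreated sums, with a mean log2 level of −0.65 with sh4 and 1.06 with shCTR. With sh4 in untreated cells 5 rose and 5 fell, against 14.4% and 14.1% of all genes. Of the 8 measured on every array, 1 rose and 5 fell. The labels name no feeder layer, and the part of any fibroblast RNA in the members' levels was not tested.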
